A study of Mus musculus with 4 samples.

Results

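The genes described here are the estrogen receptors, the estrogen-related receptors, a coactivator and classical estrogen target genes in the gastric corpus of mice given a high dose of tamoxifen. They were 10 genes (Esr1, Esr2, Gper1, Esrra, Esrrb, Esrrg, Ncoa3, Greb1, Pgr and Igf1) chosen by name, out of 18193 genes with a probe set that carries 1 gene symbol. The choice was made with earlier results of these data known. A gene was included if the platform symbol of a probe set was exactly its name, which gave 27 probe sets on Affymetrix mouse genome arrays. Each gene was read from its brightest probe set, by the mean of the 4 arrays. The study had 4 arrays, each of RNA pooled from 3 wild-type mice. By the labels the tissue was corpus epithelium, the acid-secreting part of the stomach, and the mice were 6 weeks old. They were C57BL/6, BALB/c or FVB/N mice, with no strain tied to an array. Tamoxifen was given into the peritoneum at 5 mg per 20 g of body weight, in 10% ethanol and 90% sunflower seed oil, over 1 or 3 days, with neither length tied to an array. The groups were vehicle at 2.5 days and tamoxifen at 12 hours, at 2.5 days or at 4.5 days, with 1 array each. There was thus no replicate, no spread between mice and no test, and each difference below compares 2 arrays.

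Estrogen receptors alpha and beta, encoded by Esr1 and Esr2, are transcription factors that bind estradiol and, as a selective modulator, tamoxifen. Gper1 encodes a G protein-coupled receptor of cell membranes that estradiol activates and for which tamoxifen's hydroxylated metabolite is an agonist. The estrogen-related receptors (ERRs) Esrra, Esrrb and Esrrg resemble the estrogen receptors in sequence but do not bind estradiol, and they drive genes of mitochondrial metabolism with the PGC-1 coactivators. Hydroxytamoxifen is known as an inverse agonist of the ERRs beta and gamma. In the corpus, Esrrg is known from acid-secreting parietal cells.

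Levels are given as log2 RMA values, and a difference of 1 on that scale is 2-fold. A probe set is called dim where it lay below the median of all probe sets on the same array, which was 5.30 to 5.34. A gene was counted past 2-fold if the brighter of the 2 arrays was not dim. The hybridisation controls, 18 probe sets, differed between tamoxifen and vehicle arrays with SDs of 0.10 at 12 hours and 0.08 at both later times, and single poly-A controls by up to 0.64, 0.65 and 0.72. The 12-hour array stood apart from the rest. The mean level of 7 pancreatic acinar markers was 12.77 there against 6.02 in vehicle, 5.77 at 2.5 days and 5.70 at 4.5 days, and that of 8 squamous forestomach markers was 5.86 against 9.17, 9.10 and 9.17. All differences from vehicle share the single vehicle array. That array was of 2.5 days, so the differences at 12 hours and at 4.5 days have no vehicle of their own time.

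Over all members, 6 of the 10 genes were not dim and 4 were dim on every array. In vehicle, where these 6 were all not dim, the same held for 12005 of all 18193 genes, so the count does not set the members apart. Gper1 was past 2-fold lower than vehicle on each tamoxifen array in both of its probe sets, by 5.89-fold in one and 3.47-fold in the other at 12 hours. The first was dim at 4.5 days, and the other at 2.5 and 4.5 days. Esrrg was past 2-fold lower at 12 hours, with smaller differences at 2.5 and 4.5 days. Igf1, in the probe set read, was about 2-fold higher at 2.5 and 4.5 days and level with vehicle at 12 hours. Another of its probe sets, 1452014_a_at, was not higher, at -0.03 and 0.02 for the later times. In the probe sets read, Esrra and Ncoa3 stayed within 0.28 of vehicle. Their second probe sets partly had the other sign, with 0.31 for Ncoa3 at 2.5 days. The probe sets of Esrrb disagreed more. Esr1, Esr2, Greb1 and Pgr could not be read above dim levels.

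**Figure D1:**
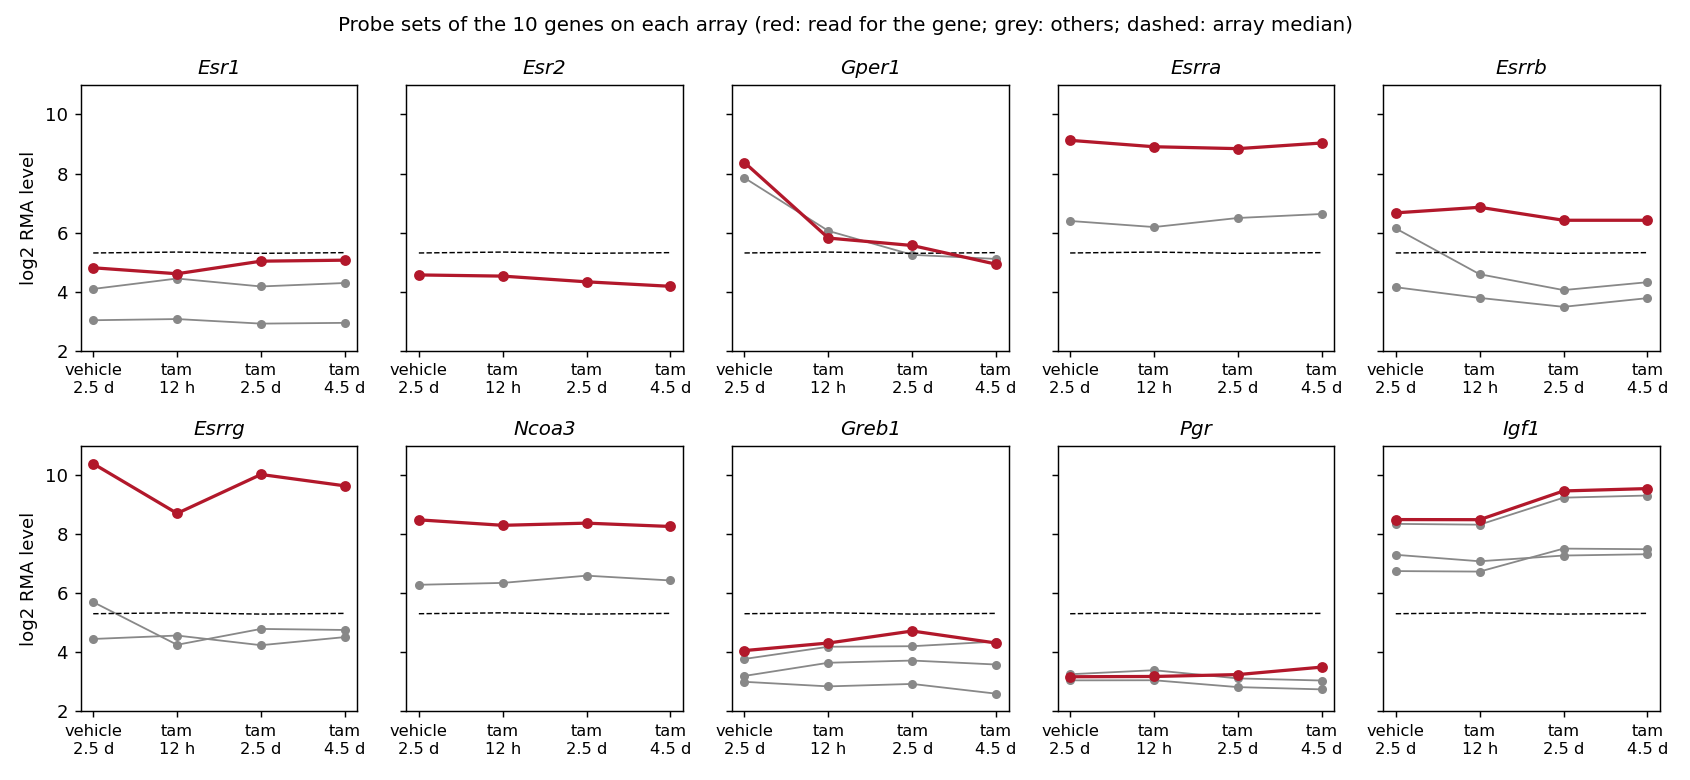
Log2 RMA level (vertical axis) of every probe set of the 10 genes on the 4 arrays (horizontal axis), with the probe set read for the gene in red, the others in grey and the array median dashed; lines join the values of 1 probe set. Both probe sets of Gper1 drop from vehicle to the tamoxifen arrays, Esrrg has its lowest value, 8.71, at 12 hours, and Esr1, Esr2, Greb1 and Pgr lie below the dashed line throughout.

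The nuclear estrogen receptors were dim. Esr1 was at 4.81 in vehicle, 4.61 at 12 hours, 5.03 at 2.5 days and 5.07 at 4.5 days. The other 2 probe sets of Esr1 were dimmer still, between 2.92 and 4.44. Its differences from vehicle, -0.20, 0.22 and 0.26, were smaller than the largest of the single poly-A controls. Esr2, with 1 probe set, was at 4.57, 4.53, 4.33 and 4.18 in the same order. Its values went down along the series by 0.39 at most, all of it at dim levels. At this signal a change in either receptor was not detectable, and a low level of either transcript cannot be told from none.

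Gper1 had the largest differences of the group. It was at 8.37 in vehicle, 5.81 at 12 hours, 5.56 at 2.5 days and 4.93 at 4.5 days. Vehicle stood high and the 3 tamoxifen arrays low, the last of them dim. The differences from vehicle were -2.56 at 12 hours and -2.81 at 2.5 days, which is 5.89-fold and 7.01-fold lower. At 4.5 days the measured difference was -3.44, and with the dim value raised to the array median Gper1 was at least 8.29-fold lower. The second probe set, 1447583_x_at, went the same way, from 7.85 in vehicle to 6.06, 5.25 and 5.11. Its differences of -1.79, -2.60 and -2.74 were smaller, and it was dim at 2.5 and 4.5 days. The suffix x marks probe sets whose probes may also match other transcripts. Among the genes not dim, 43 of 12253 had a difference at or below that of Gper1 at 12 hours and 15 of 12295 at 2.5 days, Gper1 included. Between 12 hours and 2.5 days the probe set read differed by -0.25 and the second one, dim by then, by -0.81, and the further course to 4.5 days runs into dim values. In bulk tissue, fewer cells of a type and less RNA per cell cannot be told apart.

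Beside Gper1, the markers of the gland cells moved as follows. Of 11 parietal cell markers, 10 not dim, 7, 9 and 8 were past 2-fold lower at 12 hours and at 2.5 and 4.5 days. The median differences were -1.24, -1.34 and -1.14 over all 11, and -1.32, -1.43 and -1.20 over the 10 not dim. Of 6 chief cell markers 1, 4 and 5 were past 2-fold lower, with medians of -0.19, -1.48 and -2.41. Among all genes not dim, 1.92%, 1.94% and 2.72% were past 2-fold lower at these times. The zymogen gene Pga5, for pepsinogen, was at 9.88 in vehicle, 9.67 at 12 hours, 7.60 at 2.5 days and 6.48 at 4.5 days. Bhlha15, the transcription factor of chief cell granules, was the 1 chief marker past 2-fold lower at 12 hours, at 7.19 against 9.15. The part of these cells in the Gper1 result was not tested.

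Among the probe sets read for the ERRs, that of Esrrg had the largest difference. It was at 10.39 in vehicle, 8.71 at 12 hours, 10.03 at 2.5 days and 9.64 at 4.5 days. The 12-hour array was low and the other 3 lay within 0.75 of each other. The differences from vehicle were -1.68, -0.37 and -0.75, and the step from 12 hours to 2.5 days was 1.32, or 2.49-fold. A second probe set, 1457896_at, was above the array median in vehicle only, at 5.70, and its differences were -1.45, -0.91 and -0.94, all measured against dim values and at least 1.29-fold when these are raised to the array median. The third probe set of Esrrg was dim on all arrays and stayed within 0.21 of vehicle. With the mean of its probe sets, or its probe set of middle size of difference, Esrrg was past 2-fold lower at 12 hours but the step to 2.5 days was not past 2-fold. Without the 12-hour array no value of Esrrg read from the brightest probe set passed 2-fold. That array also carried the pancreatic and squamous shifts given above, whose part in the Esrrg value was not tested. Of the 11 parietal markers, Kcne2, a potassium channel subunit gene, was the only one past 2-fold higher at 2.5 days than at 12 hours, by 1.64. The list median of that step was -0.21, or -0.26 over the 10 markers not dim, and 2.58% of all genes not dim were past 2-fold higher in it. Kcne2 itself stayed past 2-fold below vehicle at 2.5 and 4.5 days, with differences of -1.21 and -1.14.

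Esrra was not dim and moved little. Its levels were 9.12 in vehicle, 8.91 at 12 hours, 8.84 at 2.5 days and 9.03 at 4.5 days. The differences of -0.22, -0.28 and -0.09 compare with a robust SD over genes not dim of 0.27, 0.35 and 0.39. Its second probe set gave -0.21, 0.10 and 0.24, so the direction at the later times depended on the probe set.

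Esrrb was read from 1441921_x_at, with levels of 6.67, 6.86, 6.42 and 6.42 and differences from vehicle of 0.19, -0.25 and -0.25. The suffix x marks probe sets whose probes may also match other transcripts. The next probe set, 1436926_at, differed from it, with 6.14 in vehicle and the dim values 4.59, 4.05 and 4.32 after tamoxifen. Its measured differences were -1.55, -2.09 and -1.82, and with the dim values raised to the array median it was at least 1.74-fold lower. The third, dim on all arrays, differed by -0.36, -0.66 and -0.37. The probe sets of Esrrb thus disagreed at 12 hours in sign and later in size, and how much lower its transcript was depends on which one is read.

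Ncoa3, a coactivator of the p160 family that nuclear receptors recruit, was at 8.49 in vehicle, 8.30 at 12 hours, 8.38 at 2.5 days and 8.26 at 4.5 days. The differences were -0.19, -0.11 and -0.23, and those of its second probe set 0.06, 0.31 and 0.15. All of these lay within 1 robust SD of the genes not dim.

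Among the targets, Greb1 and Pgr are genes that estrogen receptor alpha induces in uterus and breast. Greb1 was at 4.06 in vehicle, 4.32 at 12 hours, 4.72 at 2.5 days and 4.32 at 4.5 days, dim on all arrays. Of its 4 probe sets, 3 lay above vehicle at every time, by 0.26 to 0.66, and 1 lay below. Pgr, the progesterone receptor gene, was at 3.18, 3.18, 3.25 and 3.50, and its 3 probe sets all stayed between 2.75 and 3.50. These values are too dim to tell a change.

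Igf1, which encodes insulin-like growth factor 1 and is an estrogen-induced gene of the uterus, was the member with a higher level after tamoxifen. It was at 8.50 in vehicle, 8.49 at 12 hours, 9.47 at 2.5 days and 9.55 at 4.5 days. Vehicle and 12 hours were level and the 2 later arrays were higher. The differences were 0.00, 0.97 and 1.05, or 1.96-fold at 2.5 days and 2.07-fold at 4.5 days, on either side of the 2-fold line. Of its 4 probe sets, none of them dim on any array, 3 had this course, with differences of 0.76 to 0.97 at 2.5 days and 0.74 to 1.05 at 4.5 days. The fourth, 1452014_a_at, gave -0.03 and 0.02. With the mean of its probe sets, or its probe set of middle size of difference, Igf1 was short of 2-fold at 4.5 days, and its values over all alternatives ran from 0.69 to 1.21. Differences at or above that of Igf1 were found for 3.62% of the genes not dim at 2.5 days and 3.45% at 4.5 days. Macrophages and fibroblasts are known sources of Igf1. Of 7 macrophage markers 1, 4 and 1 were past 2-fold higher at 12 hours and at 2.5 and 4.5 days, beside 0.996%, 3.32% and 3.8% of all genes not dim. Their medians were 0.35, 1.06 and 0.82, with mean levels of 7.92 in vehicle, 8.29, 8.77 and 8.69. The macrophage markers did not move alike. Cd14 was past 2-fold higher at each time, joined by Cd68, C1qa and C1qc at 2.5 days. Adgre1 differed by -0.36, 0.04 and 0.20, and Csf1r, in the probe set read, by -0.26, 0.02 and 0.27. The 6 fibroblast markers had medians of -0.30, 0.01 and 0.17 and mean levels of 11.18, 10.90, 11.31 and 11.37. No marker of either list was dim on all arrays, and their part in the Igf1 values was not tested.

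Against vehicle, 2 of the 6 members not dim were past 2-fold at 12 hours, where 2.91% of all genes not dim were. Both were lower, as were 1.92% of all genes, and no member was higher, against 0.996%. At 2.5 days it was 1 of 6, against 5.25% of all genes. It was lower, as were 1.94%, and none was higher, against 3.32%. At 4.5 days it was 2 of 6, against 6.53%, with Gper1 lower as were 2.72% and Igf1 higher as were 3.8%. From 12 hours to 2.5 days 1 of the 6, Esrrg, was past 2-fold, against 3.24% of genes. It was higher, as were 2.58%, and none was lower, against 0.655%. From 2.5 to 4.5 days 0 of the 6 were, against 0.429% of genes, of which 0.248% were higher and 0.182% lower. Because the members were chosen with earlier results of these data known, these shares describe them and are no test. The median difference of the members not dim was -0.20, -0.27 and -0.24 at the 3 times, beside -0.04, 0.02 and -0.01 for all genes not dim. Over all genes 408 were higher and 238 lower at 2.5 days, and 468 and 335 at 4.5 days. When the arrays were shifted by the hybridisation controls, which moved all differences up by 0.13 and 0.16, these became 560 and 179, and 701 and 227, and the small negative values of Ncoa3 at 2.5 days and of Esrra at 4.5 days turned positive.

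**Figure D2:**
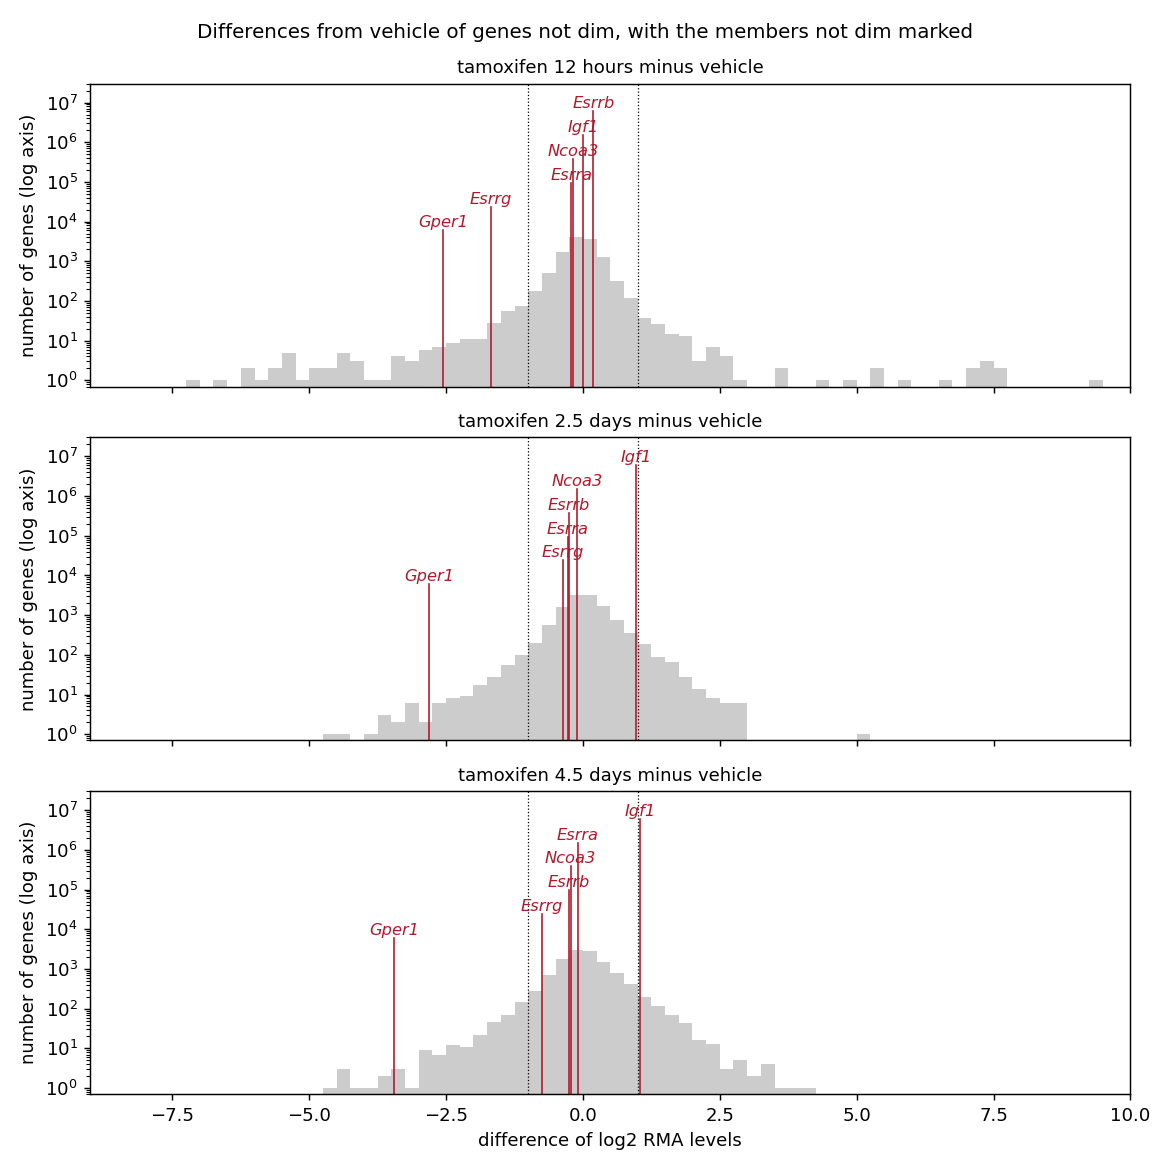
Number of genes not dim (vertical log axis) by difference of log2 RMA levels from vehicle (horizontal axis) at the 3 times, with red lines at the 6 members not dim, whose heights only separate the names, and dotted lines at 2-fold. Gper1 lies at -2.56, -2.81 and -3.44 in the thin left tail, the last measured against a dim value, Esrrg is outside the dotted lines at 12 hours, and Igf1 is close to the right one at 2.5 and 4.5 days.

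For the 3 members past 2-fold, the 250 bases before an annotated start of the gene are shown, so that the elements through which the receptors act can be looked for in the letters. Sequences are from RefSeq, build GRCm38.p6, plus strand. Gper1 has 1 listed start, chr5:139422929-139423178, and Igf1 1, chr10:87860861-87861110. Esrrg has 4, of which the first in genome order, chr1:187608756-187609005, is shown, and the array does not tell which is used. Capitals mark matches to the motifs searched.

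Gper1: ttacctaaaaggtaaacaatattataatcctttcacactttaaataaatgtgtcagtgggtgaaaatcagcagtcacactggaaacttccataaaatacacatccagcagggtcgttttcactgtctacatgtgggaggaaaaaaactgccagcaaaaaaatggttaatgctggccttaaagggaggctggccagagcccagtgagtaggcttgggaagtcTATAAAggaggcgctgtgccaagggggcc
Esrrg: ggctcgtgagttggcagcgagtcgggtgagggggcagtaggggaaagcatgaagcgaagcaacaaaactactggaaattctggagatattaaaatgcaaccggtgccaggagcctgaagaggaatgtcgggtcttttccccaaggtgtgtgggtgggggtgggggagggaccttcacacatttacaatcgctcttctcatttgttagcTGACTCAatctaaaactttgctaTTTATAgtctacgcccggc
Igf1: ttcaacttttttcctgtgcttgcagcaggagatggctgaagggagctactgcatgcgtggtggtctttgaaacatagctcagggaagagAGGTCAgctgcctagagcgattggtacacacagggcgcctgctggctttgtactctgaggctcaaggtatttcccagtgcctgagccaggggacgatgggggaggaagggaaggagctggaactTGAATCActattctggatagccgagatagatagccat

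Both strands were searched for the palindromic estrogen response element, GGTCA and TGACC with any 3 bases between, for TCAAGGTCA, the ERR element, for AGGTCA, the core of the ERR element, for the AP-1 element TGANTCA, at which estrogen receptors can act through other factors, for the Sp1 element GGGCGG and for the TATA box TATAAA. The estrogen response element matched none of the 15 listed promoters of 9 members, and 0.0639% of all 32851 promoters of this length. The ERR element matched none of the 15 and 0.387% of all. The core AGGTCA was in Igf1, starting at base -161 from the start site, and in 1 of 2 promoters of Greb1, and in 14.0% of all. The AP-1 element was in Igf1 at -37 and in the Esrrg promoter shown at -42, and in 6.75% of all. A TATA box was in Gper1 at -29 and, on the other strand, in the Esrrg promoter shown at -19 and in Pgr, and in 12.4% of all. The Sp1 element was in the promoters of Esrra and Pgr and in 2 of the Esrrg promoters not shown, and in 32.7% of all. A match describes the letters and is no evidence of binding.

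The genes with the most similar course were taken as those with the smallest Euclidean distance in the 3 differences from vehicle, over 1056 genes that were past 2-fold at any of these times, the member included. Nearest to Gper1 were Gpr155, a membrane protein, at a distance of 0.39, the ubiquitin ligase gene Hecw2 at 0.58 and Pld6, a mitochondrial phospholipase, at 0.88. Gpr155 was at 9.69, 7.21, 6.50 and 6.26 on the 4 arrays. Nearest to Esrrg were the retinoid-binding protein gene Rbp7 and Wnk4, a kinase that controls ion transport, both at 0.34, and Dapl1 at 0.36. Rbp7 was at 7.83, 6.41, 7.32 and 7.25. Nearest to Igf1 were Hsd17b7 at 0.11, the Ran exchange factor gene Rcc1 at 0.11 and the nuclear pore gene Ndc1 at 0.11. These are likenesses over 4 arrays only, and the measured values include dim ones, as for Gper1 at 4.5 days.

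There were 16 other genes known to be induced by estrogen in some tissue, all of them not dim. In the probe sets read, Myc was past 2-fold higher at each time and none was lower. Over all genes not dim, 0.996%, 3.32% and 3.8% were higher and 1.92%, 1.94% and 2.72% lower at the 3 times. Myc, a growth regulator, was at 7.79 in vehicle and 8.89, 8.88 and 8.96 after tamoxifen, level over the 3 times. The medians of this list were -0.03, 0.01 and 0.05. Igfbp4 differed by -0.32, 0.58 and 0.80 at the 3 times, the iron-binding lactoferrin gene Ltf by -0.45, 0.68 and 0.74, and the cyclin gene Ccnd1 by 0.69 at 4.5 days. Vegfa gave -0.49, -0.54 and -0.50, but its second probe set gave 0.11, -0.33 and 0.10. The probe set read for Cxcl12 gave -0.07 at 2.5 days and -0.40 at 4.5 days. Another of its probe sets, not dim in these comparisons, was past 2-fold lower, at -1.31 and -1.38. The secreted trefoil gene Tff1, near the top of the scale, was at 14.73 in vehicle and between 14.73 and 14.76 after tamoxifen.

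Of 13 coregulators and partner factors, 12 not dim, none was past 2-fold at any time. Against vehicle, 2.91%, 5.25% and 6.53% of all genes not dim were. The coactivators Ppargc1a and Ppargc1b, partners of the ERRs, lay below vehicle throughout. Ppargc1b, with 1 probe set, was at 9.69, 9.14, 9.03 and 8.78, a difference of -0.91 at 4.5 days. Ppargc1a was at 8.08, 7.95, 7.48 and 7.37, and its 5 probe sets ranged from -1.03 to -0.13 at 12 hours and from -1.03 to -0.42 at 4.5 days. Ncoa1, of the same family as Ncoa3, differed by -0.37, -0.43 and -0.63, and the pioneer factor gene Foxa1 by 0.01, 0.27 and 0.15.

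Of 10 ERR targets of mitochondrial metabolism, all not dim, Pdk4 was past 2-fold higher at 12 hours and no other passed 2-fold against vehicle. Over all genes not dim, 2.91%, 5.25% and 6.53% passed 2-fold in either direction at the 3 times. The list medians were -0.31, -0.20 and -0.28, beside -0.04, 0.02 and -0.01 for all genes not dim. Pdk4, a kinase that shuts off pyruvate dehydrogenase, was at 8.65 in vehicle, 10.36 at 12 hours, 9.39 at 2.5 days and 8.18 at 4.5 days, differences of 1.71, 0.74 and -0.47. The part of the pancreatic and squamous shifts of the 12-hour array in the Pdk4 value was not tested. The fatty acid oxidation gene Acadm went down along the series, from 10.93 to 10.50, 10.13 and 9.96. Sdhb, of the respiratory chain, differed by -0.50, -0.58 and -0.61 and Etfdh by -0.48, -0.61 and -0.59. Gabpa, a transcription factor subunit, lay above vehicle, by 0.13, 0.46 and 0.39. Cycs, for cytochrome c, differed by -0.21, 0.22 and 0.46, and its probe sets disagreed in sign at the later times.

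The IGF axis had members past 2-fold in both directions at 4.5 days. Of 15 genes, 14 not dim, 1 was lower at 12 hours and at 2.5 days, and 2 were lower and 2 higher at 4.5 days. Beside this, 1.92%, 1.94% and 2.72% of all genes not dim were lower at the 3 times. Higher were 0.996%, 3.32% and 3.8%. Igfbp2, which binds IGFs in the extracellular space, was at 10.27 in vehicle, 8.92 at 12 hours, 7.61 at 2.5 days and 8.01 at 4.5 days. Its differences of -1.34, -2.65 and -2.25 were the largest of the list at each time. The growth hormone receptor gene Ghr was at 11.10, 10.16, 10.31 and 9.98, and at 4.5 days its 2 probe sets not dim gave -1.37 and -1.13. The IGF1 receptor gene Igf1r differed by -0.86, -0.70 and -0.84, with probe sets not dim from -0.86 to -0.11 at 12 hours. Pappa, a protease that cleaves IGF-binding proteins, went from 6.27 in vehicle to 6.36, 7.20 and 7.59, with 2 probe sets at 1.24 and 1.32 at 4.5 days. Igfbp5 was at 10.18, 10.12, 10.71 and 11.44, but its second probe set gave -0.02 at 4.5 days.

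Of 8 genes of estrogen synthesis and inactivation 5 were not dim. None was past 2-fold at 12 hours, 1 was higher and 1 lower at 2.5 days, and 1 was lower at 4.5 days. Over all genes not dim, 0.996%, 3.32% and 3.8% were higher and 1.92%, 1.94% and 2.72% lower at the 3 times. Hsd17b2, which oxidises estradiol to estrone, was at 9.02 in vehicle, 9.16 at 12 hours, 8.00 at 2.5 days and 7.55 at 4.5 days, past 2-fold lower at the later times. Hsd17b7, which reduces estrone and also serves cholesterol synthesis, was at 7.51, 7.50, 8.51 and 8.46. It was just past 2-fold higher at 2.5 days, at 1.01, and short of it at 4.5 days, at 0.95. Its 3 probe sets not dim lay between 0.70 and 1.01 at 2.5 days and between 0.95 and 1.21 at 4.5 days. Cyp1b1, which hydroxylates estradiol, differed by 0.55, 0.75 and 0.81. The remaining 3, Hsd17b1, Sult1e1 and Cyp1a1, were dim on all arrays. Of other steroid receptors, the mineralocorticoid receptor gene Nr3c2 was at 7.38, 6.94, 6.59 and 6.54 and the glucocorticoid receptor gene Nr3c1 at 8.81, 8.58, 8.55 and 8.49, neither past 2-fold.

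**Figure D3:**
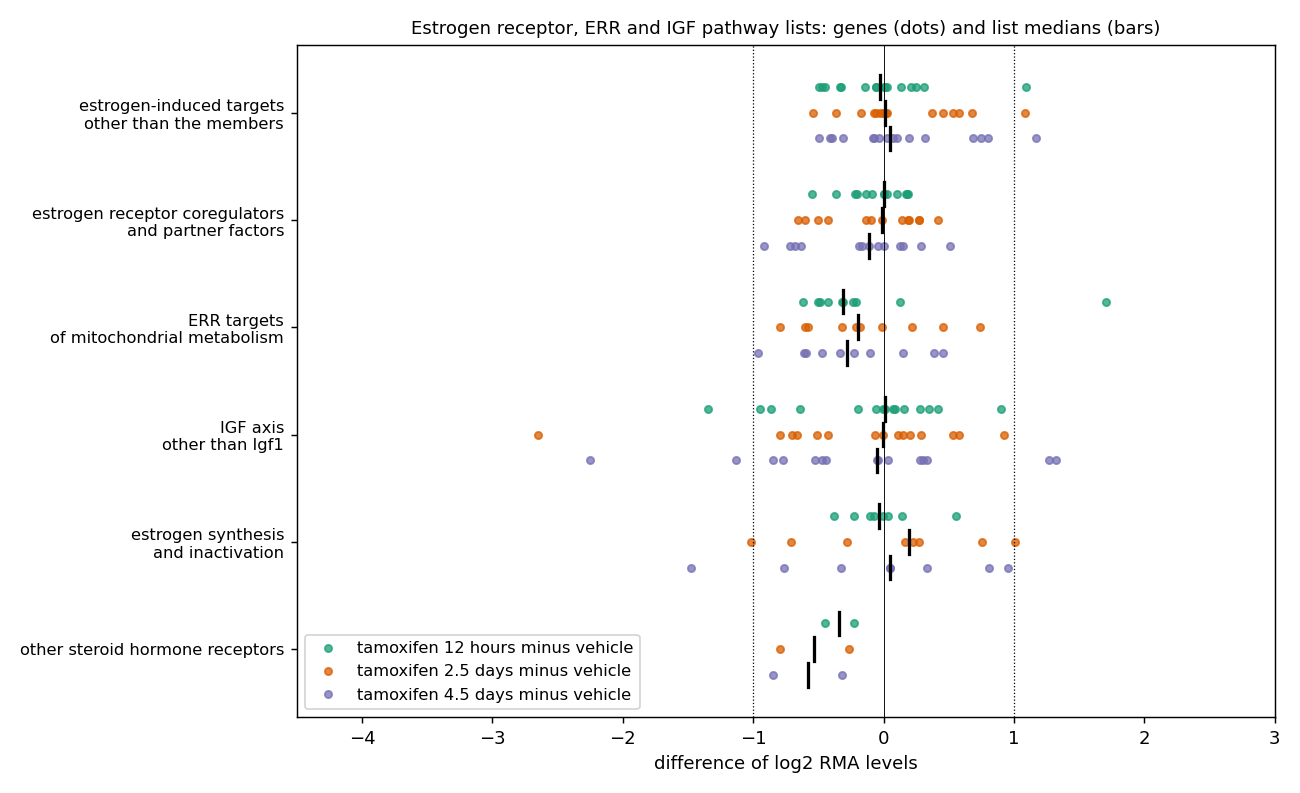
Difference of log2 RMA levels from vehicle (horizontal axis) for each gene (dots) of 6 lists around the members (vertical axis), with the list median as a black bar and a colour for each time; dotted lines mark 2-fold. Most dots lie between the dotted lines, Pdk4 is alone at 1.71 at 12 hours, and Igfbp2 reaches -2.65 at 2.5 days.

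**Figure D4:**
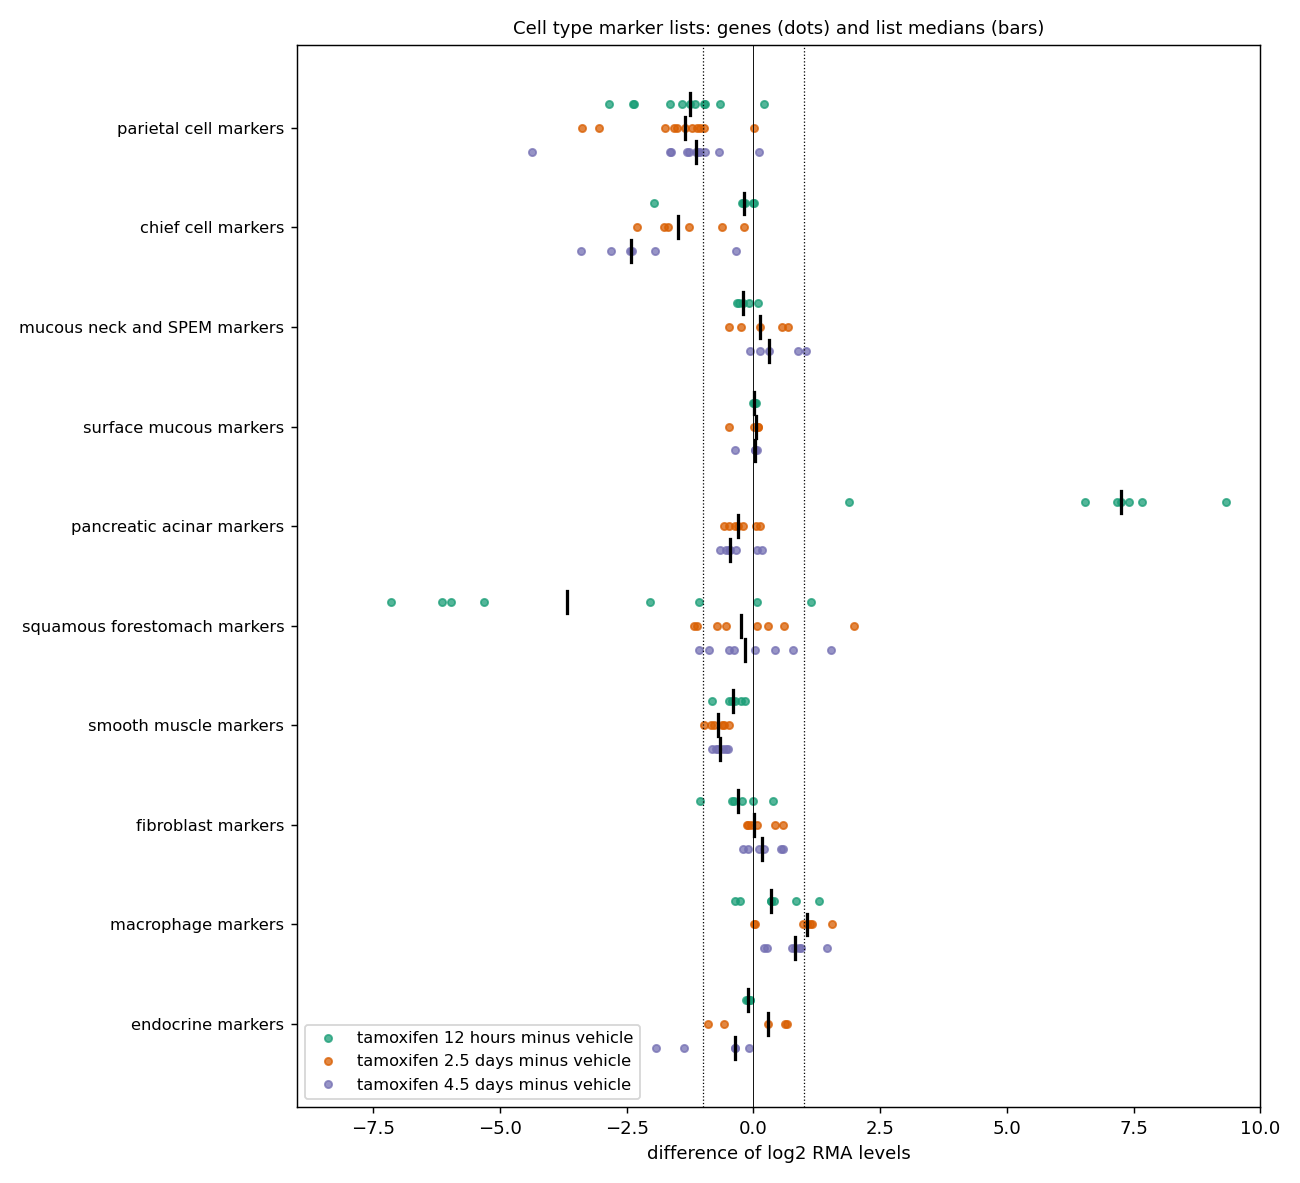
The same plot for 10 lists of cell type markers (vertical axis). The acinar markers lie to the right and most squamous ones to the left at 12 hours only, the parietal medians lie between -1.34 and -1.14 at all times, and the chief cell medians move from -0.19 to -2.41.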

How the data were processed

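Total RNA of each pool was amplified, labelled with biotin and hybridised to 1 array, per the labels' protocols. The deposited values are log2 expression, which the authors obtained by RMA, a method that in its usual form corrects background, equalises the arrays and sums up each probe set. RMA and Partek are named in the submitters' processing notes without versions. The log base was inferred from the range of 2.06 to 14.85. Because RMA in that form equalises the distributions of the arrays, it hides any change common to most genes.

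Genes were named from the platform annotation. Of 45101 probe sets, 34945 carried 1 symbol, 932 several and 9224 none or were controls, and only the first were used. Gene IDs of 34741 matched RefSeq, with no symbol changed. Differences, counts at 2-fold and list medians were computed with Python 3.11.15 and pandas 2.3.3. The call rule was run on simulated data with changes put into bright genes only. That run checks the code and does not show how the rule performs on these arrays. Named were all 10 members, up to 4 members of a list with the largest differences and the 3 genes nearest in pattern. Of other list genes or probe sets, some were named after their values were seen. The members and lists were chosen with earlier results of these data known. The number of arrays limits the precision. Genes of the lists without a probe set of their own were not analysed here. An "at least" fold raises a dim tamoxifen value to the median of its array, a bound added after seeing the data.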

Additional observations from a re-analysis of the deposited data

How the results depend on the processing

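The differences of the members were recomputed with other probe sets and scalings, and the counts also with other filters; 1 choice, picking the brightest probe set by the other 3 arrays, without the 12-hour one, was added after seeing the data and kept every count of members. No difference past 2-fold changed sign. Gper1 stayed between -2.60 and -1.79 at 12 hours, -2.84 and -2.60 at 2.5 days and -3.46 and -2.74 as measured at 4.5 days, and Esrrg stayed at or past 2-fold lower at 12 hours. With the mean of all probe sets the count of members past 2-fold was 2 at 2.5 days, Esrrb joining just past the line, then 1 at 4.5 days and 0 from 12 hours to 2.5 days. Reading each gene from its probe set of middle size of difference, it was 1 at 4.5 days and 0 from 12 hours to 2.5 days, and that of all genes over the same step was 262. Shifting the arrays by the hybridisation controls gave 2 at 2.5 days against vehicle and 2 from 12 hours to 2.5 days, Igf1 joining both times. With the filter at the 75th percentile, counts of all genes were 253 for the step from 12 hours to 2.5 days and 29 for the next step. Of the 35 recomputed counts of members 28 stayed within 1.5 times, and of those of all genes 32 of 35. No paired analysis was possible because each group was 1 array. Dim signal limits Esr1, Esr2, Greb1 and Pgr, the later values of Gper1, and the probe sets of Esrrb and Esrrg other than those read.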
